A study of Mus musculus with 18 samples.

Results

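The cyclin-dependent kinase (CDK) inhibitor genes and the microRNA precursor gene Mir7649 were examined in splenic regulatory T cells (Tregs) that lack the chromatin remodeler CHD8. The 8 genes, of 35865 in the RNA-seq table, were the CIP/KIP genes Cdkn1a, Cdkn1b and Cdkn1c, the INK4 genes Cdkn2a, Cdkn2b, Cdkn2c and Cdkn2d, and Mir7649. Cdkn1a and Mir7649 were selected on their values in the Chd8-/- against WT comparison, in which the values of Mir7649 follow those of Cdkn1a, so that the differences of the 8 genes are described without a test.

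RNA-seq compared CD4+YFP+ Tregs sorted from the spleens of 2 WT and 2 Chd8-/- mice, each group being 1 male and 1 female per the study's methods. The methods also name a 10X Genomics 3' assay beside the RNA-seq library kit, and which of them gave the deposited table is not stated, so that length-scaled levels of short or 5' features carry that limit. ATAC-seq compared 1 WT mouse with 2 Chd8-/- mice, and CHIP-seq with a CHD8 antibody used 2 WT mice. The Chd8-/- samples carry the genotype label CHD8Flox/FloxFoxp3YFP-Cre. The label of the WT samples is CHD8flox/floxFoxp3YFP-Cre/+, which names a floxed allele too, and the study's own grouping as WT was used. All samples carry the label "Poly IC injection". Cre was fused to YFP and expressed from the Foxp3 gene, which targets the deletion to Foxp3-expressing cells.

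CDK inhibitors stop the cell cycle by binding cyclin-dependent kinases. The CIP/KIP proteins p21, p27 and p57, encoded by Cdkn1a, Cdkn1b and Cdkn1c, bind complexes of cyclins with several CDKs, and Cdkn1a is the classical target of p53. The INK4 proteins bind CDK4 and CDK6 and keep them from D-type cyclins, and in T cells p27 is known to hold resting cells out of the cycle. A microRNA precursor is cut into 2 short arms, and an arm recognises its targets mainly through its seed, bases 2 to 8.

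Mir7649 lies on chromosome 6 and Cdkn1a on chromosome 17, so that their RNAs do not come from a common locus. In the RefSeq annotation of GRCm38, Mir7649 spans 56 nt on the minus strand (chr6:128974840-128974895). All of it falls within the 310-nt exon chr6:128974720-128975029 of Gm15987, a long noncoding RNA gene transcribed on the same strand, 134 nt from the annotated start of Gm15987. It also lies in an intron of the C-type lectin gene Clec2g, which runs on the opposite strand. A read on the precursor is therefore also a read on the Gm15987 exon, and how such reads were assigned is not given in the sources used here. The mature arms are shown because they tell what the precursor could give rise to, with the seed in capitals.
mmu-miR-7649-5p: uGACAGCAgugcuguagacaug
mmu-miR-7649-3p: uCUCUCCAgcacugcuuguuucu
The 5p arm (22 nt, chr6:128974874-128974895) shared its seed with 0 other mature mouse microRNAs in the RefSeq table. The 3p arm (23 nt, chr6:128974840-128974862) shared its seed with 1, mmu-miR-3473c. RNA-seq reads on the precursor do not measure the mature arms.

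Cdkn1a (chr17:29090979-29100722, plus strand) has 2 annotated start sites 2790 nt apart, and the 250 bases before each are shown because the gene's RNA was nearly absent in one genotype. Capitals in the first mark a match to the p53 response element, and capitals in the second mark GC boxes (GGGCGG, the binding motif of Sp1-type factors).
Cdkn1a first start, chr17:29090729-29090978: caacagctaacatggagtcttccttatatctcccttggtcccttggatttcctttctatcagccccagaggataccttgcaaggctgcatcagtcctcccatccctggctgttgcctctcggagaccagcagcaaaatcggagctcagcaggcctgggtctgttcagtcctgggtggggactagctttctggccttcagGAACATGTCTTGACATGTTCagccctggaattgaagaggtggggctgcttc
Cdkn1a second start, chr17:29093519-29093768: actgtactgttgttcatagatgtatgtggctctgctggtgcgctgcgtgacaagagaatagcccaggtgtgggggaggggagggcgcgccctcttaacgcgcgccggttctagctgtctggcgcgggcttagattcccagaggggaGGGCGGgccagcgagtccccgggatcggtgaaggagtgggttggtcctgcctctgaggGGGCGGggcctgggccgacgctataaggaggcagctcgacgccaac
Gm15987 start, chr6:128975030-128975279, minus strand: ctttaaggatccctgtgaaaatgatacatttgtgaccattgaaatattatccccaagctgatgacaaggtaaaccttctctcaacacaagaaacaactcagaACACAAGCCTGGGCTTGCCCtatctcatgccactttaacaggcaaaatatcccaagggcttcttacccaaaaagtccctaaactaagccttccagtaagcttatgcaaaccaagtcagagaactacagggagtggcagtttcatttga
The p53 response element was searched as a pair of 10-base half-sites with no base between them, the core C and G of each kept and at most 1 other base off. The pattern reads the same on both strands. It was chosen after the Cdkn1a sequence had been seen. The match at Cdkn1a, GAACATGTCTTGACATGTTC, began 51 bases before the first start and 2841 bases before the second. The upstream sequence of Gm15987, the host of Mir7649, held ACACAAGCCTGGGCTTGCCC, beginning 148 bases before its start. Of 32851 promoters of the same length, 19 held such a match (0.0578%). A promoter sequence was matched for 6 of the 8 genes, and of these only Cdkn1a held the element in the windows searched. A GC box on either strand was present in 32.7% of promoters, among them the second Cdkn1a promoter with 2 and the Cdkn1b promoter with 1. Of the INK4 genes, Cdkn2a held 2 and Cdkn2c held 3, each at a single start, and Cdkn2d held 3. These matches are descriptions of letters and say nothing of binding.

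Of the 19 genes with the element, 8 were tested in the RNA-seq. Besides Cdkn1a and Gm15987 these included the p53 targets Ccng1, with 451.6 and 335.3 TPM in Chd8-/- and 211.1 and 223.0 TPM in WT Tregs, and Rps27l, with 81.6 and 75.7 against 71.2 and 39.9 TPM. For both genes the Chd8-/- libraries were above the WT libraries, as for 14.8% of all tested genes. Calhm2, Gm32432 and Mthfd1 overlapped between the genotypes, and Gm34607 was lower in both Chd8-/- libraries, with 5.6 and 5.0 against 10.9 and 13.9 TPM. These 6 genes were named after their values had been seen.

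The deleted gene itself was lower but not absent. Chd8 had 14.9 and 11.4 TPM in the Chd8-/- libraries and 24.7 and 27.6 TPM in WT, a log2 difference of -0.95 (SE 0.29, limma adjusted p = 0.455). The table sums all exons of Chd8 and does not separate those that Cre removes. Treg markers were abundant in all libraries, Foxp3 lying between 202.8 and 232.1 TPM, and the 7 Treg markers summed to between 3342 and 4006 TPM. Chd8-/- library 2 stood apart in markers of other cells. Its 4 myeloid markers summed to 1400.0 TPM against 25.7 to 86.3 TPM in the other libraries, and its 2 hemoglobin genes to 1132.0 against 0.5 to 194.5 TPM. The 3 B cell markers summed to 127.4 TPM there and to 14.8 to 27.8 TPM elsewhere, the 2 CD8 T cell markers to between 9.4 and 37.8 TPM, and the 2 NK markers to at most 4.0 TPM in all 4. The 3 fibroblast and epithelial markers, mostly Epcam, summed to 42.4 and 49.7 TPM in Chd8-/- and to 20.8 and 21.5 TPM in WT.

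Values are in TPM, a unit of transcript abundance scaled for gene length and for the total of the library. Short genes showed that they are whole multiples of 1 read, from which between 9242497 and 13198793 reads per library in genes with an annotated length were derived. Of short genes checked, at least 99.6% in each library came out within 0.1 of a whole read. Read numbers below come from this step, after the authors' removal of duplicates, and their intervals cover counting error only. A gene was tested when it had at least 1 TPM in 2 or more libraries, which 15240 genes and 5 of the 8 members did. Cdkn1c, Cdkn2a and Cdkn2b did not pass. A member that is high in 1 genotype only can pass through that genotype alone, as Cdkn1a and Mir7649 did.

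Cdkn1a, which encodes p21, had 190.7 and 150.1 TPM in Chd8-/- Tregs, against 0.2 and 0.3 TPM in WT Tregs. Both Chd8-/- libraries stood far above both WT libraries, and the RNA was close to the limit of detection in WT. These levels correspond to 2620 and 1612 reads against 2 and 3 reads. The exact 95% Poisson intervals of the WT values ran from 0.0244 to 0.727 TPM and from 0.0587 to 0.832 TPM. The ratio of the summed reads, scaled for the reads per TPM of each group, was 708, with a 95% counting interval from 303 to 2180. On the log2(TPM + 1) scale, which understates the change of a gene this low in WT, the means were 7.41 ± 0.24 and 0.32 ± 0.08 (SD, n = 2 each), a difference of 7.09 (SE 0.31). This was the second largest rise in the mean among the 15240 genes tested. It did not rest on Chd8-/- library 2 with its myeloid and hemoglobin RNA: the difference was 7.26 without that library and 6.92 without Chd8-/- library 1. In sorted bulk cells, more cells with the RNA and more RNA per cell cannot be told apart.

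Mir7649 gave the largest difference of all genes tested. It had 161.5 and 145.5 TPM in Chd8-/- Tregs and 0.0 TPM in both WT libraries. Both Chd8-/- libraries were high and close to each other, and no WT read was counted. Because the precursor is short, these TPM rest on few reads, 61 and 43 in Chd8-/- and 0 and 0 in WT. With a floor of 3 reads set for a count of 0, the WT libraries would be at 11 and 10.4 TPM. The mean Chd8-/- level was 14.4-fold above the mean of these floors. Exact Poisson intervals, as used for Cdkn1a, reached 3.69 reads in WT, or 13.5 and 12.7 TPM. Those of the Chd8-/- libraries began at 123 and 105 TPM. The 14.4-fold value is therefore not a lower bound that covers counting error. The log2(TPM + 1) difference of Mir7649 was 7.27 (SE 0.30), and its ratio to Cdkn1a was 0.847 and 0.969 in the 2 Chd8-/- libraries.

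**Figure D1:**
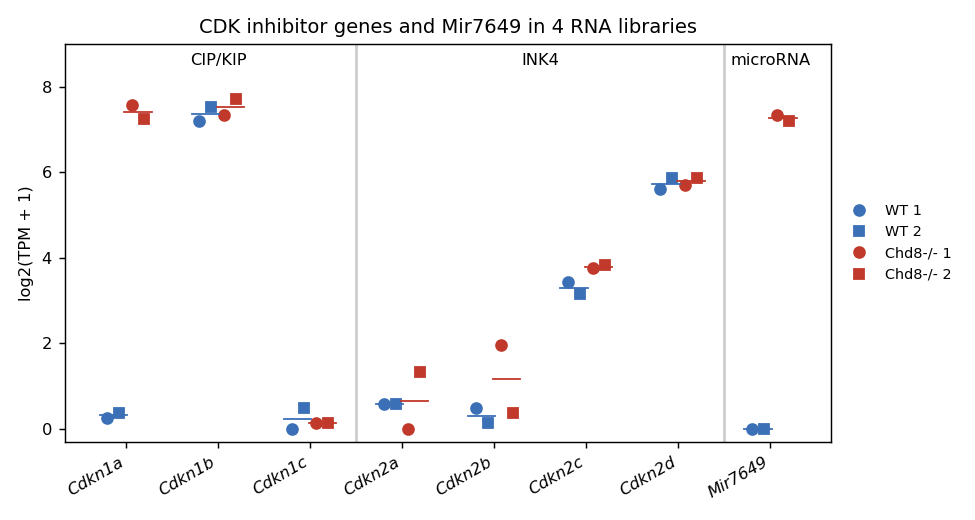
Level of each gene as log2(TPM + 1) in each of the 4 RNA libraries, WT in blue and Chd8-/- in red, with circles for library 1, squares for library 2 and a short line at each group mean. Cdkn1a and Mir7649 are near 0 in WT and above 7 in Chd8-/-, whereas the 2 genotypes lie close together for Cdkn1b and Cdkn2d.

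Cdkn1b, which encodes p27, was the most abundant of the 8 genes over the 4 libraries. It had 161.4 and 208.9 TPM in Chd8-/- and 146.3 and 182.9 TPM in WT Tregs, and the genotypes overlapped. The log2 difference was 0.17 (SE 0.23), within the spread between replicates. Its RNA rested on 1716 to 2651 reads per library, so that counting error was not what limited the comparison. Without 1 library at a time the difference ran from -0.02 to 0.35. The third CIP/KIP gene, Cdkn1c, an imprinted gene encoding p57, had 0.1 and 0.1 TPM in Chd8-/-, against 0.0 and 0.4 TPM in WT, which were 1 and 1 against 0 and 4 reads.

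In the INK4 family the 2 abundant members differed little. Cdkn2d, encoding p19Ink4d, had 51.4 and 57.7 TPM in Chd8-/- and 47.5 and 57.5 TPM in WT, with overlapping genotypes and a log2 difference of 0.06 (SE 0.23). Cdkn2c, encoding p18Ink4c, had 12.5 and 13.2 TPM in Chd8-/- and 9.9 and 7.9 TPM in WT. Both Chd8-/- libraries of Cdkn2c were above both WT libraries, with a log2 difference of 0.49 (SE 0.32) from 92 to 190 reads per library. Such a separation was not unusual, since 14.8% of all tested genes had both Chd8-/- libraries above both WT libraries.

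The INK4 genes of the locus on chromosome 4 were near the floor. Cdkn2b, encoding p15Ink4b, had 2.9 and 0.3 TPM in Chd8-/- and 0.4 and 0.1 TPM in WT. Its highest value came from 27 reads in 1 Chd8-/- library, and the other 3 libraries had 1 to 3 reads. Cdkn2a, whose 2 start sites give p16Ink4a and p19Arf and are summed in the table, had 0.0 and 1.5 TPM in Chd8-/- and 0.5 and 0.5 TPM in WT, from 0 to 9 reads. The genotypes overlapped for both genes. The 2 Chd8-/- libraries of Cdkn2b differed from each other by more than the genotypes did.

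Of the 5 members tested, 2 were at least 1 log2 unit higher in Chd8-/- Tregs, beside 5.12% of all tested genes, and both were selected for it. As both were chosen on this contrast, nothing is read from that count. Summed over the 7 inhibitor genes, the level was 419.0 and 431.8 TPM in Chd8-/- and 204.8 and 249.6 TPM in WT. Cdkn1a made up 45.5% and 34.8% of that sum in Chd8-/- libraries, and 0.0977% and 0.12% in WT. The INK4 genes together had 66.8 and 72.7 TPM against 58.3 and 66 TPM. The order of levels thus differed between the genotypes. In WT it ran Cdkn1b, Cdkn2d, Cdkn2c and then the 4 genes near 0, and in Chd8-/- Cdkn1a stood beside Cdkn1b, from which it did not differ in a common direction in the 2 libraries.

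**Figure D2:**
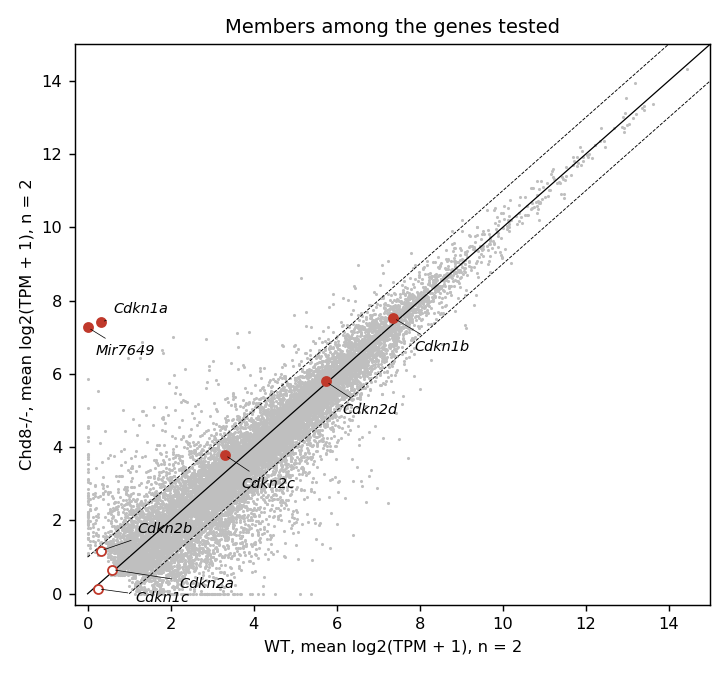
Mean log2(TPM + 1) in WT (horizontal) and Chd8-/- (vertical) libraries, n = 2 each, with the genes tested in grey, the members tested in filled red and members below the filter in open red. The solid line marks equal values and the dashed lines a log2 difference of 1. Cdkn1a and Mir7649 lie at the left edge far above the lines, and Cdkn1b, Cdkn2c and Cdkn2d lie between the dashed lines.

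Over all genes, limma called 0 of 15240 at an adjusted p of 0.05 (0.0%), with 1555 genes at an unadjusted p under 0.05 and a smallest adjusted p of 0.0807. With 2 libraries per genotype, the smallest two-sided p of an exact permutation test is 0.333. The median log2 difference over all tested genes was -0.15.

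The kinases, cyclins and pocket proteins on which the inhibitors act were examined next, in a list of 16 genes that were all tested. None passed the test in either direction (0 higher and 0 lower by limma). In 5 genes both Chd8-/- libraries were above both WT libraries and in 3 they were below, where the shares over all genes were 14.8% and 27.8%. At an unadjusted p under 0.05 there were 2 higher, Cdk6 and Pcna, and 1 lower. The lower gene was Ccnb2, which encodes the mitotic cyclin B2 and was named after its values were seen, with 28.0 and 29.6 TPM in Chd8-/- and 49.8 and 47.0 TPM in WT (log2 difference -0.73, SE 0.22, limma adjusted p = 0.455). The median difference was 0.03, between -0.06 without WT library 1 and 0.25 without WT library 2.

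Cdk6, one of the kinases bound by INK4 proteins, had the largest difference of the list, with 274.9 and 321.8 TPM in Chd8-/- and 107.0 and 132.1 TPM in WT Tregs. The genotypes did not overlap (log2 difference 1.32, SE 0.20, limma adjusted p = 0.373). Cdk4, the other INK4 target, had 91.1 and 128.5 against 71.4 and 86.7 TPM (0.45, SE 0.26, adjusted p = 0.613). Pcna, the replication clamp that p21 also binds, had 570.8 and 523.6 against 420.7 and 397.3 TPM (0.42, SE 0.15, adjusted p = 0.487). Ccne1, which encodes the CDK2 partner cyclin E1, had 72.2 and 59.6 against 53.6 and 33.4 TPM (0.62, SE 0.32, adjusted p = 0.582). In each of these 4 genes both Chd8-/- values exceeded both WT values, and none passed the adjusted threshold.

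The 2 abundant D cyclins overlapped between the genotypes and the third, Ccnd1, was lower in both Chd8-/- libraries. Ccnd2 had 157.1 and 141.1 TPM in Chd8-/- and 150.5 and 148.5 TPM in WT (-0.01, SE 0.17, limma adjusted p = 0.994). Ccnd3 had 31.5 and 27.2 against 33.8 and 30 TPM (-0.12, SE 0.24, adjusted p = 0.887). Ccnd1, named after its values were seen, had 1.9 and 2.6 against 5.1 and 4.6 TPM (-0.86, SE 0.39, adjusted p = 0.553). Cdk2, the main target of p21 and p27, had 14.2 and 9.4 against 12.4 and 14.9 TPM (-0.22, SE 0.35, adjusted p = 0.856). The retinoblastoma gene Rb1, the substrate through which these kinases release the cycle, was lower in both Chd8-/- libraries, with 87.4 and 76.2 against 99.8 and 105.7 TPM (-0.33, SE 0.19, adjusted p = 0.622).

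Because Cdkn1a is a p53 target, 28 genes of the p53 pathway other than the members were examined, of which 26 were tested. Of these, 0 passed the test in either direction by limma. At an unadjusted p under 0.05 there were 6 higher and 1 lower. Both Chd8-/- libraries were above both WT libraries in 13 of the 26 genes, beside 14.8% of all tested genes, and below them in 2, beside 27.8%. The median log2 difference was 0.35, against -0.15 over all genes, and it was 0.59 without Chd8-/- library 2 and 0.24 without Chd8-/- library 1.

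Trp53 itself overlapped between the genotypes, with 89.1 and 60.6 TPM in Chd8-/- and 88.6 and 75.5 TPM in WT (log2 difference -0.15, SE 0.27, limma adjusted p = 0.869). Mdm2, the p53-induced ligase that degrades p53, had 82.5 and 63.0 against 52.1 and 56.3 TPM (0.41, SE 0.24, adjusted p = 0.615). Perp, a p53-induced membrane protein gene, came nearest to the pattern of Cdkn1a within this list. It had 17.7 and 15.1 TPM in Chd8-/- and 0.0 and 0.5 TPM in WT (3.82, SE 0.43, adjusted p = 0.373). Zmat3, which encodes an RNA-binding protein induced by p53, had 68.3 and 36.7 against 24.4 and 17.8 TPM (1.23, SE 0.40, adjusted p = 0.465). For Ccng1, which encodes cyclin G1, the difference was 0.84 (SE 0.21, adjusted p = 0.430). Mdm2, Perp, Zmat3 and Ccng1 did not overlap between the genotypes. The list was not uniform, since Sesn1, a stress-response gene named after its values were seen, had 59.8 and 33.2 TPM in Chd8-/- and 159.0 and 166.2 TPM in WT (-1.84, SE 0.34, adjusted p = 0.402). The study had itself named Cdkn1a, Cdk6, Perp and Sesn1 from these samples, so that their direction is not independent evidence.

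Regulators of the other inhibitors gave a list of 21 genes, 19 of them tested. None was called by limma, and at an unadjusted p under 0.05 there were 1 higher, Id2, and 1 lower, Foxo1. Both Chd8-/- libraries were above both WT libraries in 3 of the 19 genes, beside 14.8% of all tested genes. They were below them in 4, beside 27.8%. Id2, an inhibitor of helix-loop-helix factors named after its values were seen, had 132.7 and 166.0 against 93.8 and 74.7 TPM (0.82, SE 0.23, limma adjusted p = 0.443). The median difference was -0.07, between -0.23 without Chd8-/- library 1 and 0.06 without Chd8-/- library 2. Foxo1, which activates Cdkn1b transcription, had 210.8 and 189.3 TPM in Chd8-/- and 357.8 and 368.8 TPM in WT, without overlap (-0.86, SE 0.16, limma adjusted p = 0.402). Skp2, the ligase subunit that marks p27 for degradation, had 8.0 and 11.9 against 7.3 and 9.8 TPM (0.19, SE 0.38, adjusted p = 0.885). Its cofactor Cks1b was lower in both Chd8-/- libraries, with 55.6 and 19.6 against 64.3 and 101.1 TPM (-1.26, SE 0.58, adjusted p = 0.553), the largest difference of the list. The Polycomb genes Ezh2 and Bmi1, which silence the Cdkn2a locus, were at 10.8 to 14.5 TPM in all 4 libraries with differences of -0.07 each (SE 0.32 and 0.31, adjusted p = 0.955 and 0.956). Among the further Polycomb genes, Eed and Suz12 were higher in both Chd8-/- libraries, Eed with 30.8 and 33.5 against 20.9 and 29.9 TPM (0.35, SE 0.29, adjusted p = 0.713) and Suz12 with 85.7 and 81.2 against 72.8 and 81.1 TPM (0.12, SE 0.19, adjusted p = 0.856). The Polycomb genes Ring1, Rnf2 and Cbx7 overlapped between the genotypes, with differences of 0.06, -0.15 and -0.20. Cks1b, Eed, Suz12, Ring1, Rnf2 and Cbx7 were named after their values were seen.

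**Figure D3:**
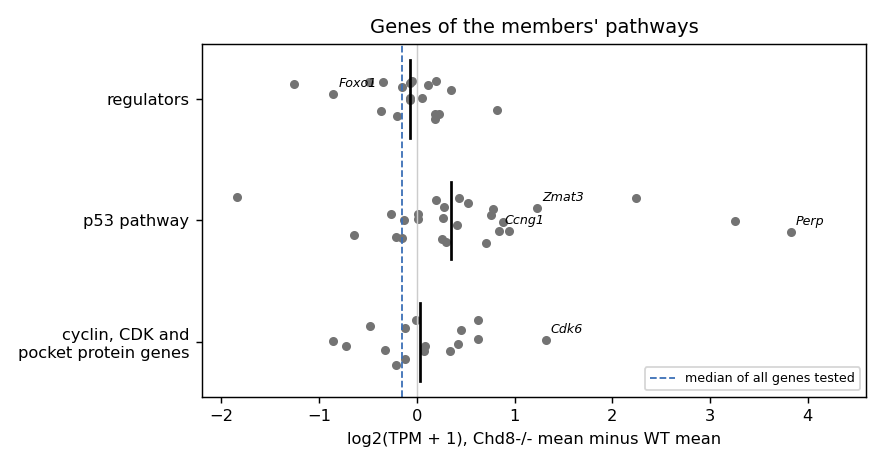
Log2 difference between Chd8-/- and WT means (horizontal, log2(TPM + 1)) of each gene tested in the 3 lists, with a black bar at each list's median and a dashed line at the median of all genes tested. The p53 pathway has its median at 0.35 and Perp at the right end, and the medians of the other lists lie near 0.

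Of the genes around Cdkn1a, Trp53cor1 was also near 0 in WT and higher in both Chd8-/- libraries, at a much lower level, and Srsf3 and Stk38 were not. Within 100 kb, 7 genes were in the table and 3 were tested, of which limma called 0. Srsf3, a splicing factor gene 47607 nt away, had 307.1 and 227.3 TPM in Chd8-/- and 232.3 and 269.2 TPM in WT (log2 difference 0.08, SE 0.22, adjusted p = 0.922). Stk38, a kinase gene 82969 nt away, was lower in both Chd8-/- libraries, with 34.2 and 26.4 against 53.7 and 56.7 TPM (-0.86, SE 0.25, adjusted p = 0.446). Trp53cor1, which encodes the p53-induced long noncoding RNA lincRNA-p21 and lies 11853 nt from Cdkn1a, had 5.9 and 1.0 TPM in Chd8-/- and 0.0 and 0.2 TPM in WT, from 124 and 16 against 0 and 3 reads (1.76, SE 0.74, adjusted p = 0.525). Rab44 was at 0.0 TPM in all 4 libraries, and Cpne5, Gm16196 and Gm41556 did not pass the filter on low values, with at most 5.1 TPM in any library.

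At the Mir7649 locus the same-strand host moved with the precursor. Gm15987 had 75.6 and 97.4 TPM in Chd8-/- Tregs and 2.8 and 0.5 TPM in WT, from 552 and 556 reads against 15 and 3 reads. The higher values were again those of both Chd8-/- libraries. The log2 difference was 5.18 (SE 0.55). The 1026 exonic nt of Gm15987 outside the precursor make this measure mostly, but not wholly, separate from that of Mir7649. Clec2g, on the opposite strand, had 6.0 and 9.3 against 1.5 and 0.7 TPM (2.04, SE 0.46, limma adjusted p = 0.409). BC064078, 18066 nt away, had 10.4 and 75.4 against 17.1 and 20.3 TPM and overlapped (0.59, SE 0.97, adjusted p = 0.856), and Clec2f had at most 0.3 TPM. Without a stated strand setting, reads of Gm15987 and Clec2g cannot be separated where the genes overlap.

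**Figure D4:**
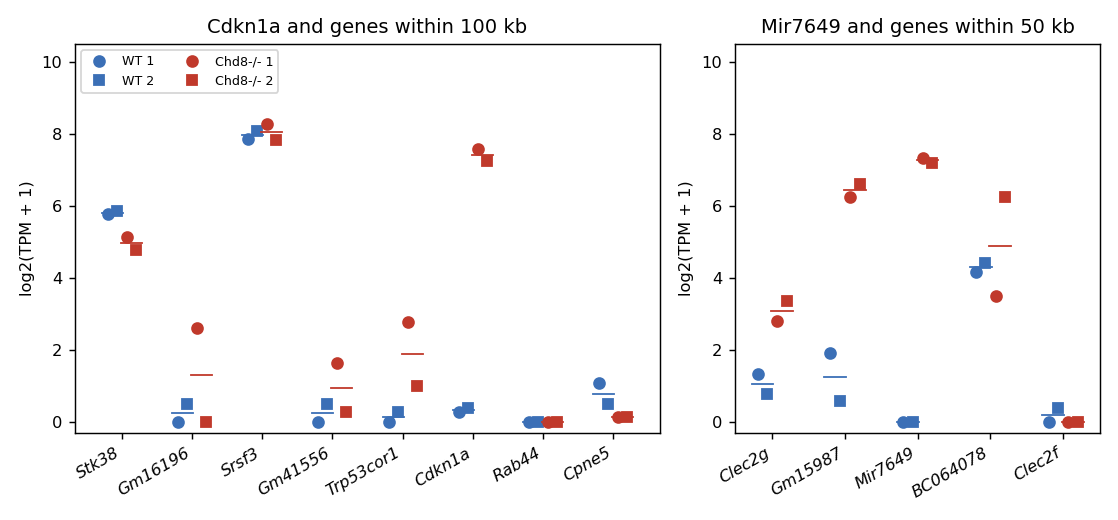
Levels as log2(TPM + 1) in the 4 libraries for genes within 100 kb of Cdkn1a (left) and within 50 kb of Mir7649 (right), in genome order, with short lines at group means. Cdkn1a is the only gene near its locus that exceeds 7 in Chd8-/- and near 0 in WT, whereas Mir7649, Gm15987 and Clec2g are all higher in both Chd8-/- libraries.

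The other members had 11 tested neighbours within 50 kb, and limma called 0 of them. Beside Cdkn1b, Crebl2 had 7.7 and 7.2 against 5.7 and 5.4 TPM and the long noncoding RNA gene Lockd, 3567 nt away, 25.9 and 8.6 against 9.1 and 19.3 TPM, while 2810454H06Rik was lower with 2.1 and 1.5 against 4.8 and 7.0 TPM. Beside Cdkn2c, Faf1 had 35.5 and 31.2 against 36.9 and 48.5 TPM. Beside Cdkn2d, Kri1, 490 nt away, had 123.1 and 119.1 against 109.0 and 154.5 TPM. The antisense gene Gm12610, which overlaps Cdkn2b, had at most 1.6 TPM. Without a stated strand setting, reads where Gm12610 and Cdkn2b overlap cannot be told apart. None of the 4 neighbours of Cdkn1c passed the filter.

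Likeness to Cdkn1a was measured as the Euclidean distance between profiles of log2(TPM + 1), each centred on its own mean over the 4 libraries. Mir7649 was nearest of all genes tested, at 0.24 log2 units. It was followed by Mir6541 at 1.27, Mir7089 at 2.17, Gm15987 at 2.22 and the long noncoding RNA gene Gm15918 at 2.36. The remaining members were far down this order, Cdkn2c at rank 1901, Cdkn1b at 4008 and Cdkn2d at 4935. These genes were picked for their pattern in the same 4 libraries, so their values are a description.

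Mir6541 (chr14:62865542-62865651) had 56.6 and 56.9 TPM in Chd8-/- and 0.0 TPM in both WT libraries, from 42 and 33 against 0 reads. It lies on the same strand within Wdfy2, whose 4.9 and 8.9 TPM in Chd8-/- and 7.9 and 8.5 TPM in WT overlapped. Mir7089 (chr9:109889643-109889710) had 69.8 and 103.1 against 0.0 and 2.8 TPM, from 32 and 37 against 0 and 1 reads. Its host Cdc25a, which encodes a phosphatase that activates CDKs, overlapped with 5.9 and 7.6 against 5.8 and 6.0 TPM. Thus only Mir7649, of the 3 microRNA genes, lay within a same-strand gene that separated the genotypes. Gm15918 (chr14:63600779-63607719) had 109.5 and 81.8 TPM in Chd8-/- and 3.1 and 2.0 TPM in WT, from 1437 to 2460 against 34 to 50 reads.

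Among microRNA precursor genes Mir7649 ranked 1 of 514 tested by its difference, and the next was 5.85. Of the 514, 95 (18.5%) were at least 1 log2 unit higher in Chd8-/- Tregs, beside 5.12% of all tested genes, and 152 (29.6%) were at least 1 lower. Both Chd8-/- libraries were above both WT libraries in 78 of them (15.2%), near the 14.8% of all tested genes. The median SD between replicates of a precursor gene was 0.87 in WT and 1.02 in Chd8-/-. Mir3473c, the gene of the microRNA that shares the 3p seed, had 1.8 and 112.3 TPM in Chd8-/- and 48.1 and 57.3 TPM in WT, with overlap.

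CHD8 CHIP-seq and ATAC-seq used the mm39 build, for which no annotation was used here, so peaks could be placed only through the 4 CHIP peaks that the study's supplement assigns to Cdkn1a. These lie at chr17:29226569-29227035, chr17:29251195-29252004, chr17:29487737-29488213 and chr17:29566358-29566952 (mm39). They span 340384 nt, whereas Cdkn1a spans 9744 nt in GRCm38, so that they cannot all lie in that gene. The first peak lies at -24.8 kb from the second, about the GRCm38 spacing of the Stk38 and Srsf3 starts, 29008010 and 29032660. If these 2 peaks mark those starts, Cdkn1a (29090979-29100722) lies to the right of the second and before the next, at 236.4 kb. None of the 4 would then lie in Cdkn1a, which was not checked in mm39. The second peak was the tallest, with 179.3 and 217.2 TPM in the 2 mice, above 91.9% of the 6971 CHIP peaks by its mean. The others had 131.9 and 176.9, 134.3 and 142.7, and 146.9 and 138.8 TPM, at percentiles 69.1, 51.6 and 57.0. No value of the IgG control was analysed here.

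Accessibility at these 4 CHIP peaks differed little between the genotypes in the values used here. The study itself lists Cdkn1a among the upregulated CHD8 targets that gained accessibility, and its tracks place the gain where CHD8 binds. Whether those tracks show any of these 4 peaks was not determined here. By the gene spacing given above, none of these 4 CHIP peaks would lie in Cdkn1a. Their values therefore do not describe accessibility at the Cdkn1a start sites. The ATAC peak at the second one had 31.9 TPM in the WT mouse and 27.0 and 27.1 TPM in the Chd8-/- mice. At the first, the values were 24.3 against 20.3 and 20.2 TPM, at the third 40.2 against 30.9 and 33.3 TPM, and at the fourth 35.3 against 32.8 and 35.8 TPM. None reached a log2 change of 0.4 in both mice. With a single WT mouse there is no test, and the depth behind the ATAC values is unknown.

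Within 50 kb of any of the 4 CHIP peaks there were 47 ATAC peaks. Of these, 7 were at least 0.4 log2 units above the WT mouse in both Chd8-/- mice (14.9%, beside 12.7% of all 81800 peaks) and 7 at least 0.4 below (14.9%, beside 6.37%). The lower count was 14 (beside 12.1% of all peaks) with Chd8-/- mouse 1 left out, a looser criterion, and 4 (beside 1.23%) with a pseudocount at the median value. The share higher was near the background at the main setting. With a pseudocount at the median value 5 of the 47 peaks were higher, beside 2.02% of all peaks. With Chd8-/- mouse 1 left out the higher count was 7 (beside 17.6%), and with mouse 2 left out 9 (beside 19.0%). The higher peaks were unevenly placed. Over the whole stretch, extended by 50 kb on either side after the data were seen, 9 of 59 peaks were higher, and 8 of those 9 were among the 11 peaks between 30 and 65 kb to the right of the second CHIP peak.

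The strongest change was at chr17:29309853-29309976 (mm39), with 2.0 TPM in the WT mouse and 14.1 and 19.8 TPM in the Chd8-/- mice, log2 changes of 2.40 and 2.86. A mean change of at least this size was seen in 15 of all ATAC peaks (0.0183%). The peak at chr17:29299806-29299969 had 3.3 TPM in WT and 13 and 15.7 TPM in Chd8-/-, and that at chr17:29312510-29313034 had 15.5 against 34.9 and 34.8 TPM. These peaks were singled out after their values had been seen. Their distance to the start sites of Cdkn1a was not measured, because the start sites are annotated here in another build. The strongest and the last of them lie 58.3 and 61.2 kb to the right of the second CHIP peak. Both fall outside the 50 kb windows. In GRCm38 the 2 Cdkn1a starts, 29090979 and 29093769, lie about as far to the right of the Srsf3 start at 29032660. If the second CHIP peak marks that start, these 2 ATAC peaks lie at or near the Cdkn1a starts. That was not checked in mm39.

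**Figure D5:**
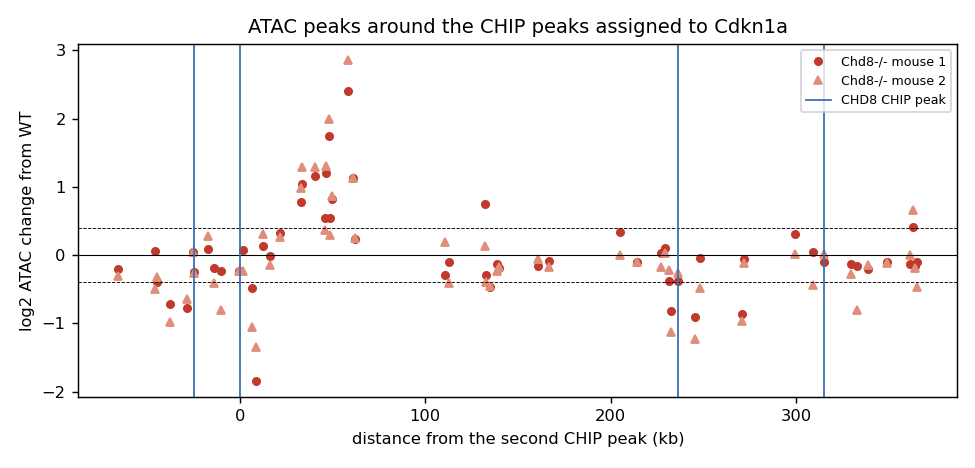
Log2 change in ATAC signal of each Chd8-/- mouse from the WT mouse (vertical) against distance from the second CHIP peak assigned to Cdkn1a (horizontal, kb), with circles for mouse 1 and triangles for mouse 2. Vertical blue lines mark the 4 CHIP peaks and dashed lines changes of 0.4. The peaks between 30 and 65 kb form the highest group, reaching 2.86, and peaks at the CHIP peaks lie near 0.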

How the data were processed

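The authors trimmed RNA-seq reads, aligned them to mm10 with STAR 2.6.1e, removed duplicates and counted reads on genes with featureCounts, and the deposited values are TPM rounded to 1 decimal. ATAC-seq and CHIP-seq reads were aligned to mm39 with HISAT2, and peaks were called with MACS2 2.2.7.1. For peaks the authors gave TPM too, in 1 column for each mouse. All deposited columns of samples were used.

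Differences between genotypes were fitted by limma 3.58.1 (R 4.3.3, trend, two-sided, Benjamini-Hochberg) on log2(TPM + 1), for genes with at least 1 TPM in 2 or more libraries. Standard errors are moderated. Reads were recovered as TPM multiplied by exon length (RefSeq, GRCm38) and divided by each library's step. The fit and the step search were tested on simulated data. ATAC changes used a pseudocount of 0.84.

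Named genes were the 8 members, Chd8, set genes of 3 lists, annotated neighbours and the 5 nearest profiles. The members and lists were chosen with earlier results of these data known. Each limma p-value sets the genotype difference against the spread between these few libraries, moderated over all genes tested.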

Additional observations from a re-analysis of the deposited data

How the results depend on the processing

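On the log2 scale the difference of Cdkn1a was 8.93 with a pseudocount of 0.1 TPM and 5.05 with 5 TPM, and that of Mir7649 was 10.6 and 4.98. Leaving out each library in turn gave 6.92 to 7.26 for Cdkn1a and 7.19 to 7.34 for Mir7649, and both stayed more than 1 log2 unit higher in each alternative run. The number of genes called by limma was 0 in each alternative run except a mean TPM of at least 5, which tests fewer genes and gave 2, Cdkn1a and Mir7649. Both were selected on this contrast, so nothing is read from it. With the library number as a replicate block, 0 genes were called and the difference of Cdkn1a was 7.09. Deviations of same-numbered libraries correlated at -0.0117. With so few libraries, this correlation cannot show whether the numbers pair the samples. Quantile normalization moved the median difference of all genes from -0.15 to 0.00 and that of Cdkn2c to 0.71.

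The count of higher ATAC peaks near the CHIP peaks was 5 with a pseudocount at the median value, beside 2.02% of all peaks. The count of lower ones was 4 at that setting, beside 1.23% of all peaks. This lower count was 14 without Chd8-/- mouse 1, beside 12.1% of all peaks, and 7 without Chd8-/- mouse 2, beside 9.83%. Leaving a mouse out is a looser criterion, since a single Chd8-/- mouse then has to pass the cut. Any further cause was not tested. Windows of 10 and 50 kb around start sites were not run, because no mm39 annotation was used here. Few reads limit Cdkn1c, Cdkn2a, and Mir7649 in WT.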
